A study of Mus musculus with 27 samples.

Results

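The RNA levels of 44 collagen genes were followed through mouse tumors grown from cells with a guide RNA against Mettl3 or Mettl14, core subunits of the m6A methyltransferase, and through control tumors. A gene was taken as a collagen where its symbol was Col followed by 1 or 2 digits, the letter a and 1 digit and where it stood in both deposited gene count tables. This rule gave 44 of the 54752 genes of the tables, and the 44 genes code for chains of 27 collagen types on 15 chromosomes. They fell into 11 fibrillar genes (types I, II, III, V, XI, XXIV and XXVII), 8 basement membrane genes (types IV, XV and XVIII) and 25 others. The tumors grew from CT26 cells, a colon carcinoma line of BALB/c mice, inoculated subcutaneously in BALB/c hosts in a mix of saline and Matrigel, a basement membrane protein extract. The 3 groups were Mettl3 knockout tumors and Mettl14 knockout tumors, whose cells had received a retroviral guide RNA against that gene, and control tumors, whose cells had received a control guide RNA. There were 5 RNA-seq libraries of poly(A) RNA in each group. By the series design all 3 groups were under anti-PD-1 therapy, whereas the protocol names antibodies to CTLA-4 and/or PD-1 and IgG at a dose of 200 µg (10 mg/kg) between day 11 and day 23, with no assignment of antibody to sample. The genotype field of the Mettl14 samples reads Mettl4, and their titles, which read Mettl14, were followed here. The knockout was made in the tumor cells alone, so stromal, vascular and immune cells of the host kept both genes. The labels do not say whether the guide-treated cells were clones or pools. The 12 m6A immunoprecipitation and input samples of the series were not analysed here.

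Collagens are secreted or membrane-bound proteins in which 3 chains wind into a triple helix, each chain being a repeat of triplets that open with glycine. Fibrillar collagens assemble into the cross-striated fibrils that give connective tissue its tensile strength, and fibroblasts are their main source in most tumors. Type IV collagen forms the sheet-like network of basement membranes beneath epithelia and around vessels, and types XV and XVIII are attached to that network. METTL3 and METTL14 are the core subunits of the methyltransferase for N6-methyladenosine (m6A), the most common internal modification of messenger RNA.

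The rule rested on symbols, and the coding sequences (GENCODE M21, mm10) showed what the genes share at the level of sequence. A stretch of 30 codons from each of the 6 collagens that follow in most of the results is printed 5′ to 3′, with the glycine codons that open each triplet in capitals. The stretches begin at codon 168 of Col1a1, 97 of Col1a2, 164 of Col3a1, 43 of Col4a1, 777 of Col4a2 and 352 of Col8a1.
Col1a1: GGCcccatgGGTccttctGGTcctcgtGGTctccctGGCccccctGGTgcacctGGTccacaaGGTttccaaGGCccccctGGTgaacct
Col1a2: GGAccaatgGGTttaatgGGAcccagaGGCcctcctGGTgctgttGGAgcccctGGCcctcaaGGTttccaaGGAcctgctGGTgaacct
Col3a1: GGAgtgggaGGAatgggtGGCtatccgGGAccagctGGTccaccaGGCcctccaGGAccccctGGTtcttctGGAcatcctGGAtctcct
Col4a1: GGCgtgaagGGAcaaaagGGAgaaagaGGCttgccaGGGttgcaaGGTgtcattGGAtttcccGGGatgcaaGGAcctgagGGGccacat
Col4a2: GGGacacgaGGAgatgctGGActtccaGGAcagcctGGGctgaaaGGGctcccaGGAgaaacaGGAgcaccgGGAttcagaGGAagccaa
Col8a1: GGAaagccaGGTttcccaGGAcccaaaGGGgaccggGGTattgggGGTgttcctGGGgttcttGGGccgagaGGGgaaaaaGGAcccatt
Each stretch was taken at the start of its gene's longest run of such triplets. Its 10 capitalized glycine codons, at 1 codon in 3, therefore follow from that choice. The stretches of Col3a1 and Col8a1 hold further glycine codons in lower case. In the fibrillar genes shown, this pattern of glycine at 1 codon in 3 ran without a break over 338 triplets in Col1a1, 339 in Col1a2 and 344 in Col3a1. In the fibrillar genes Col24a1 and Col27a1 it was broken into 3 runs of at least 6 triplets each, the longest of 216 and 217. In the network-forming genes it was broken into shorter runs, the longest of 40 triplets in Col4a1 (22 runs of at least 6 triplets), 66 in Col4a2 (23 runs) and 61 in Col8a1. Over all 44 collagen genes glycine codons made up a median of 24.2% of the coding sequence, with a range of 9.07% to 31.2%, against a median of 6.03% over 21562 mouse genes.

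Depth and background differed between the libraries in ways that touch the collagens of low level. Reads assigned to genes numbered 4.35 to 9.33 M (M for mega) in Mettl3 knockout libraries, 6.45 to 17.0 M in Mettl14 knockout libraries and 5.52 to 20.98 M in control libraries. The share of uniquely aligned reads that fell outside genes was 60.2% to 78.0% in Mettl3 knockout libraries, 53.6% to 65.9% in Mettl14 knockout libraries and 44.3% to 53.8% in 4 control libraries, while control replicate 1 stood apart at 78.6%. Mettl3 itself was at 13.7 ± 1.44 CPM in Mettl3 knockout tumors and 19.4 ± 3.56 CPM in controls (mean ± SD, n = 5 each), with a log2 fold change of -0.56 (edgeR adjusted p = 0.0545, SE 0.15). Mettl14 was at 61.1 ± 12.3 CPM in Mettl14 knockout tumors and 68.9 ± 11.6 CPM in controls, with a log2 fold change of -0.21 (edgeR adjusted p = 0.735, SE 0.17). Neither targeted gene passed the threshold of 0.05 in these fits. Mettl3 did in 4 of 20 alternatives in processing, DESeq2 and voom among them, with adjusted p from 0.0219 to 0.4, and Mettl14 did in 0. Adjusted p-values here and below come from edgeR's quasi-likelihood test with Benjamini-Hochberg adjustment over all genes tested. The labels do not say that replicates came from separate mice, and the p-values therefore measure only how far these samples spread. The tumors were measured in bulk, and fewer cells of a type and less RNA per cell cannot be told apart.

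Collagen RNA was dominated by a few genes. The level of a gene is its share of the gene reads of a library, expressed in CPM and scaled by the trimmed mean of M-values over the 15 libraries, and as CPM per kilobase of exon where genes are compared with each other. Per kilobase the highest mean level over the 15 libraries was that of Col3a1 at 114, followed by Col1a2 at 94.3, Col1a1 at 65.8, Col4a1 at 61.1, Col4a2 at 39.6, Col8a1 at 34.7 and Col6a1 at 25.2 CPM per kilobase, and the lowest was that of Col4a6 at 0.419. The length was that of all annotated exons of a gene, 9816 bases for Col3a1 and 12426 bases for Col1a2. Their transcripts with the longest coding sequence have 5564 and 5348 bases, so the order of these genes depends on the length used. Without a length, Col1a2 had the higher mean, 1172 CPM against 1118 CPM for Col3a1. Col3a1 is the single chain of type III collagen, Col1a1 and Col1a2 are the chains of type I, Col4a1 and Col4a2 those of the common form of type IV, Col8a1 is a chain of the short network-forming type VIII, and Col6a1 a chain of the microfibrillar type VI. The 3 genes with the most reads held 52.5% of all collagen CPM, the first 5 held 65.9% and the first 12 held 89.5%. Collagen reads made up 0.538, 0.451, 0.410, 0.318 and 0.449% of the gene reads of Mettl3 knockout replicates 1 to 5, 0.920, 0.730, 0.368, 1.09 and 0.415% in Mettl14 knockout replicates and 0.330, 0.320, 0.378, 0.515 and 0.588% in control replicates. The largest shares were those of Mettl14 knockout replicates 4, 1 and 2, and the groups overlapped. No collagen was at 0 in any library, the lowest single value being 5 reads of Col9a1 in control replicate 3.

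By class, Mettl14 knockout tumors had the highest mean of fibrillar RNA, and both knockouts had a lower mean of basement membrane RNA than control tumors, with groups that overlapped in each case. The 11 fibrillar genes summed to 4423, 2372, 2927, 1349.7 and 2227 CPM in Mettl3 knockout replicates 1 to 5, to 6448, 4330.2, 1903, 7609 and 2014 CPM in Mettl14 knockout replicates and to 1451, 1886, 2031, 2747 and 3292 CPM in control replicates. The mean was 2659.8 ± 1136 CPM in Mettl3 knockout, 4461 ± 2569 CPM in Mettl14 knockout and 2281 ± 733 CPM in control tumors (SD, n = 5 each), which is a ratio to control of 1.17 for Mettl3 knockout and 1.96 for Mettl14 knockout tumors. Without Mettl3 knockout replicate 1 the Mettl3 knockout ratio was 0.973. Mettl14 knockout replicates 1, 2 and 4 lay above every control tumor, and replicates 3 and 5 lay within the control range. The 8 basement membrane genes summed to 559, 977, 728, 502 and 1075 CPM in Mettl3 knockout replicates, 1244, 872, 832, 737 and 910.1 CPM in Mettl14 knockout replicates and 650.0, 1007, 1409, 1263 and 1642 CPM in control replicates. Their mean was 768 ± 252 CPM in Mettl3 knockout, 919 ± 193 CPM in Mettl14 knockout and 1194 ± 382 CPM in control tumors, a ratio to control of 0.643 for Mettl3 knockout and 0.769 for Mettl14 knockout tumors. Control replicate 1 had the lowest basement membrane sum of its group and lay within the range of the Mettl3 knockout tumors. Among all genes above 100 CPM, the level of Col4a1 and Col4a2, the median log2 fold change in Mettl3 knockout over control was -0.57. In Mettl14 knockout over control it was -0.15. Col4a3, Col4a4 and Col4a6 had higher means in Mettl3 knockout (8.50, 12.1 and 5.23 CPM) than in control tumors (3.52, 6.91 and 2.42 CPM). The other genes of the class had lower means there. The fibrillar sum over the basement membrane sum was 7.92, 2.43, 4.02, 2.69 and 2.07 in Mettl3 knockout replicates, 5.18, 4.97, 2.29, 10.3 and 2.21 in Mettl14 knockout replicates and 2.23, 1.87, 1.44, 2.17 and 2.00 in control replicates. This ratio exceeded the highest control in 4 of 5 Mettl3 knockout and 4 of 5 Mettl14 knockout tumors, counting values of 2.29 and above. The 25 other collagens summed to 993 ± 246 CPM in Mettl3 knockout, 1416 ± 647 CPM in Mettl14 knockout and 996 ± 168 CPM in control tumors. Sums over members carry no test here.

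**Figure D1:**
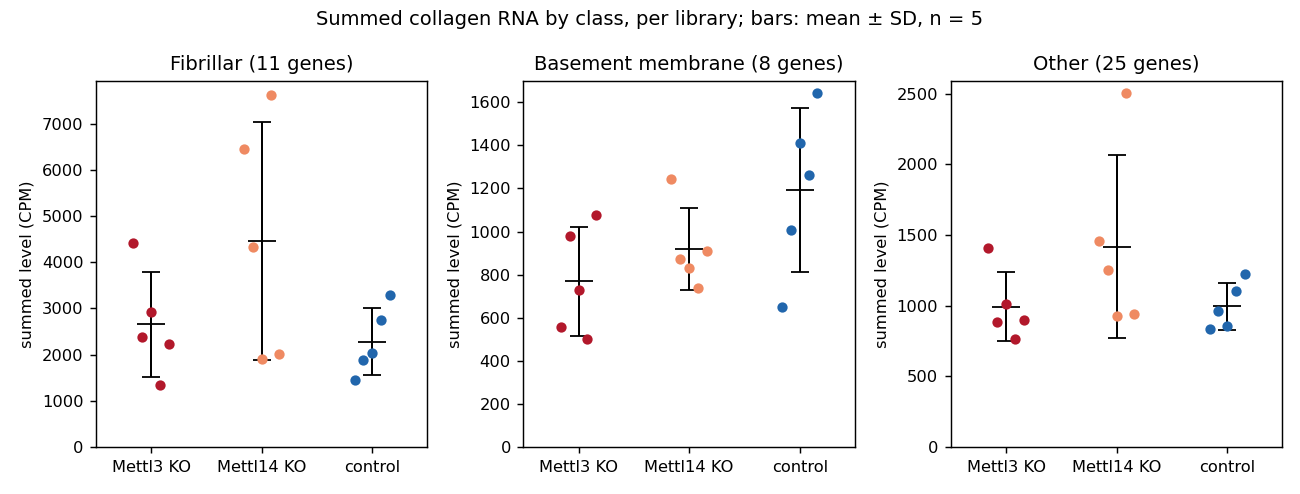
Summed level of the collagen genes of each class (y axis, CPM) in each library of Mettl3 knockout, Mettl14 knockout and control tumors (x axis); points are libraries, bars the mean ± SD of 5. Fibrillar sums of 3 Mettl14 knockout tumors lie above all controls, while 4 of 5 controls lie above the mean of Mettl3 knockout tumors (768 CPM) and of Mettl14 knockout tumors (919 CPM) in the basement membrane class.

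In tests gene by gene, no collagen passed the threshold in any comparison. Among Mettl3 knockout and control tumors 0 of the 44 collagens had an adjusted p under 0.05, where 1.24% of the 21427 genes tested did (266 genes). Among Mettl14 knockout and control tumors 0 of 44 passed, where 0.0% of 21555 genes did, and between Mettl3 knockout and Mettl14 knockout tumors 0 of 44 passed, where 0.0% of 24566 genes did. All 44 collagens passed the filter on low counts in each comparison. At an unadjusted p under 0.05, 5 collagens were higher and 4 lower in Mettl3 knockout than in control tumors, against a background of 5.26% of all genes higher and 27% lower. The 5 were Col6a5, Col28a1, Col13a1, Col9a3 and Col6a6, and the 4 were Col18a1, Col4a2, Col4a1 and Col10a1. In Mettl14 knockout tumors 7 collagens were higher and 0 lower than in controls at that level, against 4.74% of all genes higher and 6.6% lower. The 7 were Col1a1, Col12a1, Col5a3, Col5a2, Col6a3, Col3a1 and Col15a1, which are 4 fibrillar genes, a fibril-associated gene, a beaded filament gene and a basement membrane gene. The median log2 fold change over the 44 collagens was 0.66 for Mettl3 knockout over control (all genes tested, -0.14), 0.40 for Mettl14 knockout over control (all genes tested, -0.09) and 0.10 for Mettl3 knockout over Mettl14 knockout (all genes tested, -0.01). Both knockouts were set against the same 5 control libraries. No collagen had groups that did not overlap, where 1.76% of all genes lay wholly higher and 1.68% wholly lower in Mettl3 knockout than in control tumors, 0.682% and 0.701% in Mettl14 knockout tumors, and 1.65% and 1.88% in Mettl3 knockout relative to Mettl14 knockout tumors.

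Other tools called some collagens in the Mettl3 knockout comparison. DESeq2 called 4 of 44 collagens (12.6% of all genes), namely Col6a5 and Col28a1 as higher, against 2.3% of all genes, and Col18a1 and Col4a2 as lower, against 10.3%. Limma voom called 16 collagens (23.5% of all genes), 14 as higher, against 11.2% of all genes, and 2 as lower, against 12.3%. The 14 were Col2a1, Col4a3, Col4a6, Col6a4, Col6a5, Col7a1, Col9a3, Col13a1, Col17a1, Col19a1, Col22a1, Col25a1, Col26a1 and Col28a1. None of these is among the 12 most abundant collagens. The count also moved when control replicate 1 was left out. In that fit edgeR called 25 collagens higher and 4 lower, 29 of 44 in all. Of all genes, 51.6% were called (36.2% higher, 15.4% lower). The 25 hold none of the 12 most abundant collagens. In the Mettl14 knockout comparison DESeq2 called 0 collagens (2.34% of all genes) and voom 0 (0.0%), and without control replicate 1 edgeR called 7 as higher, against 2.86% of all genes. Those 7 were Col7a1, Col9a3, Col24a1, Col6a6, Col27a1, Col28a1 and Col6a5, none of which is among the 12 most abundant collagens. Between the knockouts DESeq2 called 0 collagens (0.277% of all genes).

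**Figure D2:**
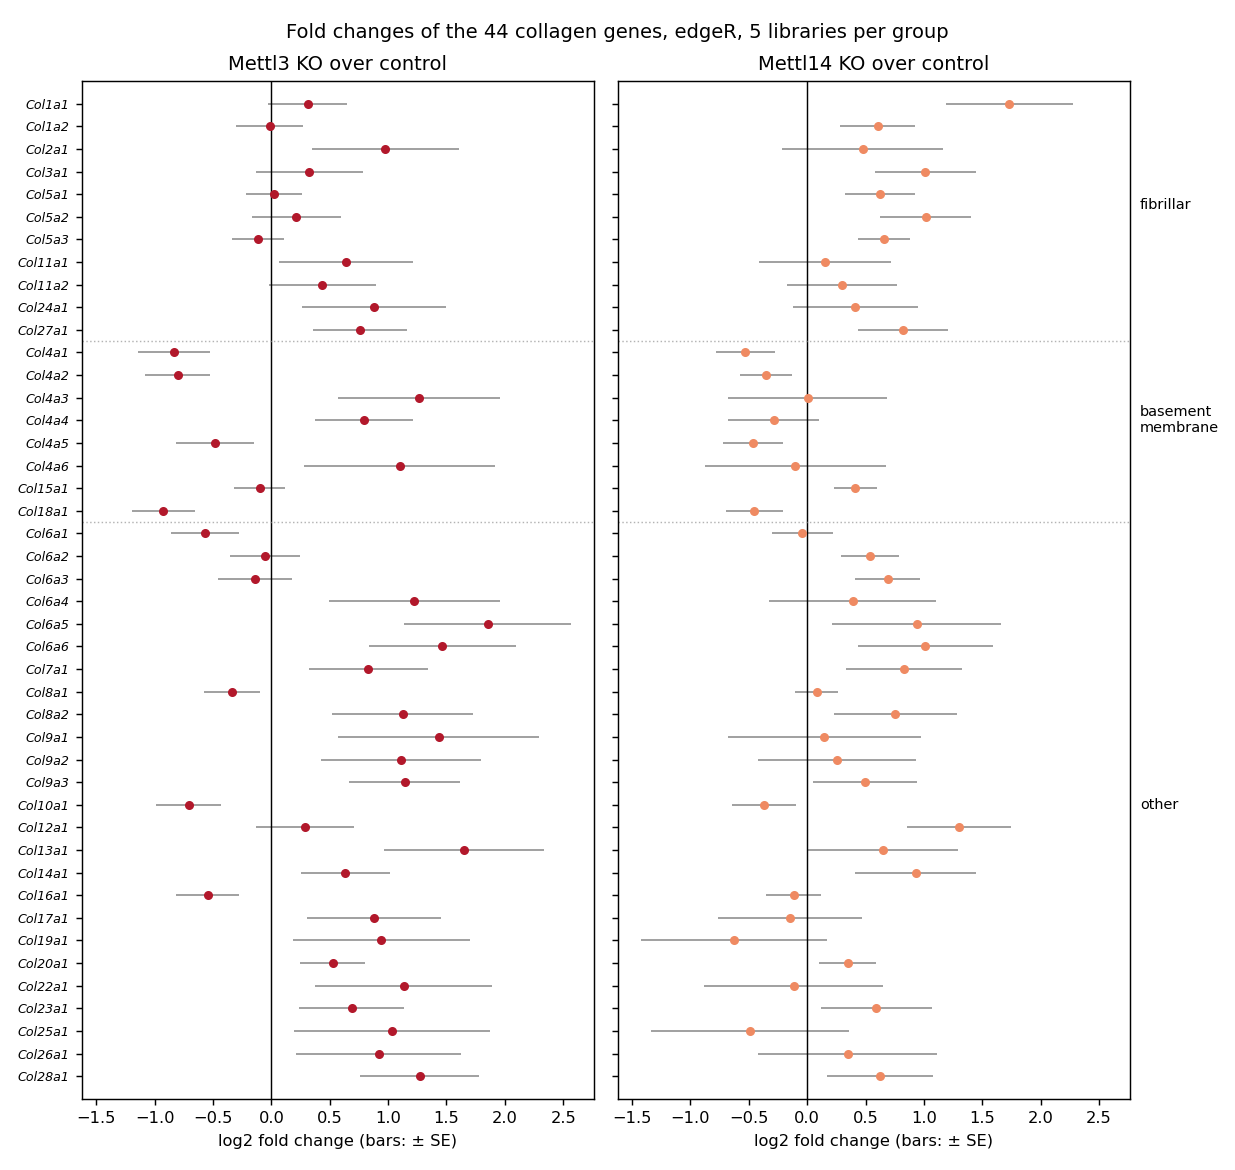
Log2 fold change (x axis; bars, SE) of each collagen gene (y axis, by class) in Mettl3 knockout and Mettl14 knockout tumors over control tumors, 5 libraries per group. Col1a1 at 1.73 is the highest in the Mettl14 knockout panel, and Col4a1, Col4a2 and Col18a1 are the lowest in the Mettl3 knockout panel; none passed an adjusted p of 0.05.

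Among the fibrillar collagens, Col1a1 was above every control in 3 of the 5 Mettl14 knockout tumors, and 2 of these, replicates 1 and 4, were also above every control for Col1a2, Col3a1, Col5a1 and Col5a2. Col1a1 was at 401, 246, 369, 186 and 262 CPM in Mettl3 knockout tumors, 1615, 863, 206, 976 and 217 CPM in Mettl14 knockout tumors and 131, 151, 155, 303 and 393 CPM in controls, replicates 1 to 5 in each group. Mettl14 knockout replicates 1, 2 and 4 exceeded every control, the other 2 lay within the control range, and Mettl3 knockout tumors exceeded the control maximum once. The log2 fold change of Col1a1 was 1.73 (edgeR adjusted p = 0.269, SE 0.54) in Mettl14 knockout over control and 0.31 (edgeR adjusted p = 0.476, SE 0.34) in Mettl3 knockout over control. Col1a2 was at 1144, 1315, 1057, 498 and 1064 CPM in Mettl3 knockout tumors, 2296, 1356, 879, 2283 and 822 CPM in Mettl14 knockout tumors and 558, 761, 954, 1197 and 1391 CPM in controls. The same pair of Mettl14 knockout tumors, replicates 1 and 4, was highest for this second type I chain. Its log2 fold change was 0.61 (edgeR adjusted p = 0.515, SE 0.32) for Mettl14 knockout and -0.01 ± 0.29 (SE) for Mettl3 knockout tumors, the sign of the last value depending on the scaling. Col3a1 was at 2314, 518, 1112, 391 and 580.0 CPM in Mettl3 knockout tumors, 1827, 1543, 541, 3474 and 631 CPM in Mettl14 knockout tumors and 475, 701, 668, 889.9 and 1097 CPM in controls. Here Mettl3 knockout replicate 1 joined the high Mettl14 knockout tumors, and the groups overlapped. The log2 fold change of Col3a1 was 1.01 (edgeR adjusted p = 0.408, SE 0.43) in Mettl14 knockout and 0.32 (edgeR adjusted p = 0.577, SE 0.46) in Mettl3 knockout tumors.

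The type V chains, which are built into type I fibrils and limit their width, had the same high tumors. Col5a2 was at 282, 62.8, 130.0, 71.1 and 98.7 CPM in Mettl3 knockout tumors, 245, 226, 79.4, 480.3 and 107 CPM in Mettl14 knockout tumors and 78.1, 114, 86.9, 130.2 and 134 CPM in controls. The highest values were those of Mettl14 knockout replicate 4 and Mettl3 knockout replicate 1. Col5a1 was at 154, 166, 162, 96.8 and 139 CPM in Mettl3 knockout tumors, 339, 203, 119.7, 276 and 132 CPM in Mettl14 knockout tumors and 87.9, 102, 126, 155 and 203 CPM in controls. Mettl14 knockout replicates 1 and 4 lay well above the control range for this chain, and replicate 2 lay at its upper end. The log2 fold changes in Mettl14 knockout over control tumors were 1.01 (edgeR adjusted p = 0.352, SE 0.39) for Col5a2 and 0.62 (edgeR adjusted p = 0.457, SE 0.30) for Col5a1, and 0.21 and 0.02 in Mettl3 knockout over control. Col5a3, another type V chain that was chosen after its values were seen, averaged 37.9 ± 8.29 CPM in Mettl3 knockout, 63.6 ± 17.0 CPM in Mettl14 knockout and 39.1 ± 10.9 CPM in control tumors, with a log2 fold change of 0.66 (edgeR adjusted p = 0.301, SE 0.22) in Mettl14 knockout over control. Leaving out Mettl14 knockout replicate 4 gave a log2 fold change over control of 0.55 for Col3a1 and 0.58 for Col5a2, and leaving out Mettl14 knockout replicate 1 gave 1.27 for Col1a1. The remaining fibrillar genes, Col2a1, Col11a1, Col11a2, Col24a1 and Col27a1, averaged 7.18 to 12.7 CPM over the 15 libraries. Types II and XI are collagens of cartilage.

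**Figure D3:**
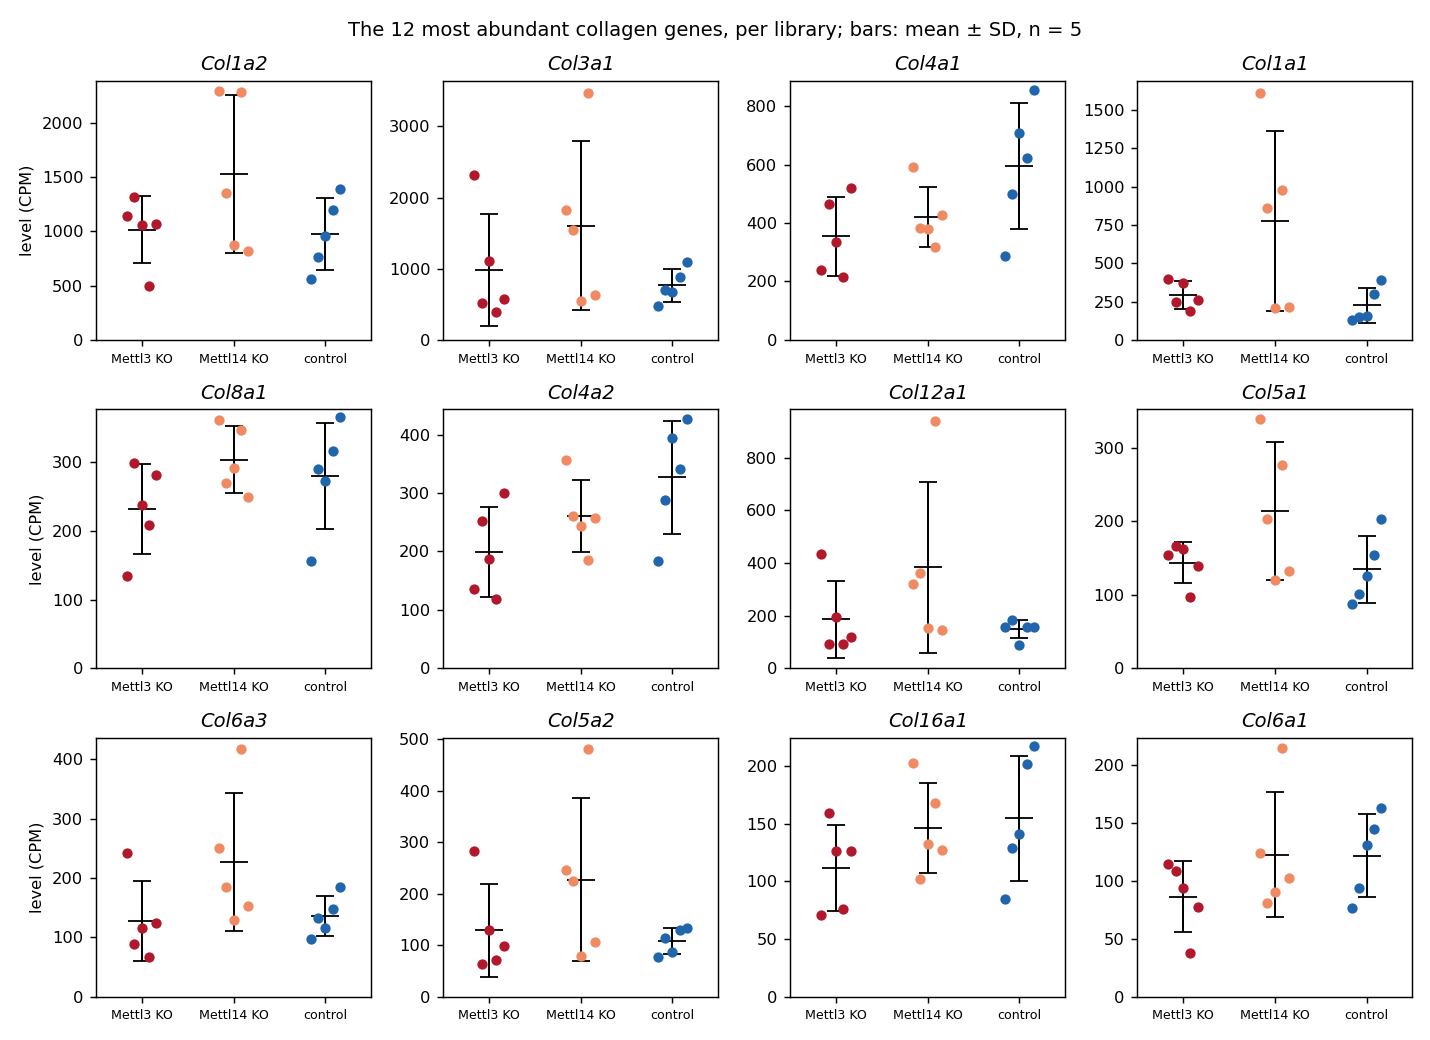
Level (y axis, CPM) of the 12 collagen genes with the most reads in each library of Mettl3 knockout, Mettl14 knockout and control tumors (x axis); points are libraries, bars the mean ± SD of 5. The Mettl14 knockout libraries spread widely for Col1a1, Col3a1, Col12a1 and Col5a2, and the control libraries are the highest on average for Col4a1 and Col4a2.

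Cell type markers were read beside the fibrillar genes. The 8 fibroblast markers summed to 208 to 463 CPM in Mettl3 knockout, 260.0 to 897 CPM in Mettl14 knockout and 236 to 471 CPM in control libraries, and the Mettl14 knockout maximum was replicate 4. Mettl14 knockout replicates 1 and 2, with high Col1a1, had fibroblast sums of 307 and 281 CPM, inside the control range. Dcn was the largest part of this sum, at 103 and 95.9 CPM in these libraries and at 103 to 283 CPM in controls. The means of Dcn and Twist2 were lower in Mettl14 knockout than in control tumors, and those of the other fibroblast markers were higher. Replicate 4 also had the highest macrophage sum, 1797 CPM against at most 959 CPM in controls, and the highest T cell sum, 202 CPM against at most 32.6 CPM. The 6 endothelial markers summed to 132 to 235 CPM in Mettl3 knockout, 161 to 267 CPM in Mettl14 knockout and 148 to 279 CPM in control tumors, and the 6 markers of pericytes and smooth muscle to 125 to 214 CPM in Mettl3 knockout, 155 to 286 CPM in Mettl14 knockout and 155 to 251 CPM in control tumors. The 5 skeletal muscle markers summed to 22.3 to 643 CPM in Mettl3 knockout, 3.74 to 31.1 CPM in Mettl14 knockout and 23.0 to 272 CPM in control tumors. The 5 epithelial markers, of which CT26 as a carcinoma line may hold its own share, summed to 51.0 to 109.7 CPM in Mettl3 knockout, 82.1 to 166 CPM in Mettl14 knockout and 182 to 234 CPM in control tumors. This sum was carried by Krt20, with means of 57.2 CPM in Mettl3 knockout, 102 CPM in Mettl14 knockout and 186 CPM in control tumors, while the Mettl3 knockout means of Epcam, Cdh1 and Krt8 were above those of control tumors. The median log2 fold change of the epithelial list was 0.52 in Mettl3 knockout and -0.54 in Mettl14 knockout over control. The adipocyte, keratinocyte and cartilage lists stayed under 50 CPM in every library. No marker was at 0 in all libraries, and the part of these cell types in the collagen values was not tested.

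The basement membrane collagens gave the lowest p-values of the family in Mettl3 knockout tumors, short of the threshold after adjustment. Col4a1 was at 239, 465, 334, 214 and 521 CPM in Mettl3 knockout tumors, 593, 383, 378, 319 and 427 CPM in Mettl14 knockout tumors and 287, 499, 709, 621 and 854 CPM in controls. The lowest values were those of Mettl3 knockout replicates 4 and 1 and of control replicate 1, so the groups overlapped. Col4a2 was at 137, 252, 187, 118 and 299 CPM in Mettl3 knockout tumors, 356, 261, 244, 186 and 258 CPM in Mettl14 knockout tumors and 183, 288, 394, 341 and 427 CPM in controls. The order of the libraries was nearly that of Col4a1. The log2 fold change in Mettl3 knockout over control tumors was -0.83 (edgeR adjusted p = 0.0949, SE 0.31) for Col4a1 and -0.80 (edgeR adjusted p = 0.0809, SE 0.28) for Col4a2. In Mettl14 knockout over control tumors it was -0.53 (edgeR adjusted p = 0.462, SE 0.25) and -0.35 (edgeR adjusted p = 0.621, SE 0.22), also below 0. Col18a1, the source of the angiogenesis inhibitor endostatin, was at 43.8, 79.7, 47.9, 44.6 and 61.1 CPM in Mettl3 knockout, 93.7, 62.4, 69.0, 60.2 and 86.4 CPM in Mettl14 knockout and 57.0, 72.4, 96.8, 111 and 161 CPM in control tumors. It was chosen after its values were seen as the collagen with the smallest p, with a log2 fold change of -0.93 (edgeR adjusted p = 0.0589, SE 0.27) in Mettl3 knockout and -0.45 (edgeR adjusted p = 0.524, SE 0.24) in Mettl14 knockout over control. Over the 20 alternatives in processing its adjusted p in the Mettl3 knockout comparison ran from 0.00646 to 0.355, under 0.05 in 4, while its log2 fold change stayed below 0 in all of them. For Col4a2 the range was 0.0183 to 0.486 with 4 under 0.05, and for Col4a1 0.0181 to 0.654 with 2. Genes above 100 CPM, the level of Col4a1 and Col4a2, had a median log2 fold change of -0.57 in that comparison (1777 genes). At 50 to 100 CPM, the level of Col18a1, the median was -0.49 (2143 genes). Values below 0 were thus common among abundant genes, and those of Col4a1, Col4a2 and Col18a1 lay further below 0 than these medians. Col15a1 averaged 49.7 ± 14.6 CPM in Mettl3 knockout, 69.9 ± 18.4 CPM in Mettl14 knockout and 51.1 ± 9.84 CPM in control tumors, and Col4a5 averaged 83.8 ± 38.5 CPM in Mettl3 knockout, 81.8 ± 24.9 CPM in Mettl14 knockout and 110.1 ± 39.3 CPM in control tumors.

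Among the collagens outside both classes, the fibril-associated Col12a1 and the microfibrillar Col6a3 were highest in Mettl14 knockout replicate 4, as Col3a1 and Col5a2 were. Col12a1 was at 433, 91.0, 195, 91.9 and 118 CPM in Mettl3 knockout tumors, 320.4, 363, 152, 937 and 146 CPM in Mettl14 knockout tumors and 156, 185, 89.8, 155 and 158 CPM in controls. Mettl14 knockout replicate 4 lay far above the other 4 of its group, and Mettl3 knockout replicate 1 was the highest of its own. The log2 fold change of Col12a1, whose product decorates type I fibrils, was 1.30 (edgeR adjusted p = 0.299, SE 0.44) in Mettl14 knockout over control, 0.70 without Mettl14 knockout replicate 4, and 0.29 in Mettl3 knockout over control. Col6a3 was at 243, 89.6, 116, 67.5 and 124 CPM in Mettl3 knockout tumors, 251, 185, 129, 418 and 152 CPM in Mettl14 knockout tumors and 96.6, 133, 116, 149 and 185 CPM in controls. Mettl14 knockout replicate 4 was again the highest library. Its log2 fold change was 0.69 (edgeR adjusted p = 0.38, SE 0.28) in Mettl14 knockout and -0.14 (edgeR adjusted p = 0.727, SE 0.32) in Mettl3 knockout over control. Col6a1, a second chain of the type VI heterotrimer, averaged 86.7 ± 30.8 CPM in Mettl3 knockout, 123 ± 54.0 CPM in Mettl14 knockout and 122 ± 35.7 CPM in control tumors. Mettl14 knockout replicate 4 lay above the control range for Col6a1 as well, and the other 4 Mettl14 knockout tumors lay inside it. Col8a1 averaged 232 ± 64.9 CPM in Mettl3 knockout, 303 ± 48.7 CPM in Mettl14 knockout and 279.7 ± 77.5 CPM in control tumors. Col16a1, a fibril-associated gene, averaged 112 ± 37.4 CPM in Mettl3 knockout, 146 ± 39.3 CPM in Mettl14 knockout and 155 ± 54.3 CPM in control tumors. The Mettl3 knockout mean was the lowest for all 3 of these genes. The log2 fold changes of Col6a1, Col8a1 and Col16a1 in Mettl3 knockout over control were -0.57 ± 0.29, -0.34 ± 0.24 and -0.55 ± 0.27 (SE), with edgeR adjusted p of 0.187, 0.304 and 0.181. In Mettl14 knockout over control they were -0.04 ± 0.26, 0.08 ± 0.18 and -0.12 ± 0.24 (SE). Col14a1, a fibril-associated gene of fibroblasts, was at 106, 22.2, 41.7, 39.9 and 26.6 CPM in Mettl3 knockout, 45.0, 51.0, 14.3, 166 and 19.1 CPM in Mettl14 knockout and 26.4, 30.8, 26.2, 30.3 and 34.3 CPM in control tumors. The 5 controls lay close together, and the highest libraries were again Mettl14 knockout replicate 4 and Mettl3 knockout replicate 1.

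Many collagens were near the level of genes that a tumor is not expected to transcribe. The olfactory receptor genes, 1107 in number and used by sensory neurons of the nose, served as a measure of that level. In all 15 libraries 24 collagens lay above the 95th percentile of these receptors in CPM per kilobase, namely 7 fibrillar, 5 basement membrane and 12 other genes. The remaining 20 did not, and Col4a6 and Col19a1 lay above it in 0 libraries. The 20 low collagens summed to 246, 90.3, 176, 243 and 109.7 CPM in Mettl3 knockout replicates 1 to 5, 77.5, 148, 80.8, 139 and 113 CPM in Mettl14 knockout replicates and 228, 68.8, 40.0, 61.5 and 50.1 CPM in control replicates. The libraries with the largest shares of reads outside genes, control replicate 1 and Mettl3 knockout replicates 4 and 1, had the highest sums, and the 4 other controls the lowest. In Mettl3 knockout over control tumors the 20 low collagens had a median log2 fold change of 1.06, with 19 above 0, and the 24 others a median of 0.00, with 12 above 0. Without control replicate 1 the median of the 20 was 2.35, and edgeR called 19 of them higher and 1 lower. In that fit 36.2% of all genes were called higher and 15.4% lower. Genes of all kinds at 2 to 5 CPM had a median log2 fold change of 0.75 in the comparison with all libraries (5390 genes), against 1.13 for the 8 collagens at that level. At 5 to 10 CPM the median was 0.06 for all genes (2728 genes) and 0.90 for 16 collagens. At 10 to 20 CPM it was -0.31 for all genes (2481 genes) and 0.79 for 2 collagens. In Mettl14 knockout over control tumors the median was 0.30 for the 20 low collagens and 0.57 for the 24 others. The 3 largest log2 fold changes of the family in Mettl3 knockout over control were 1.85 (edgeR adjusted p = 0.105, SE 0.71) for Col6a5, 1.65 (edgeR adjusted p = 0.123, SE 0.68) for Col13a1 and 1.46 (edgeR adjusted p = 0.135, SE 0.63) for Col6a6, all from this low group. Col6a5 was at 22.3, 4.63, 11.8, 12.1 and 4.01 CPM in Mettl3 knockout and 9.34, 1.92, 1.49, 1.86 and 0.699 CPM in control tumors, so that control replicate 1 lay among the knockout values.

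**Figure D4:**
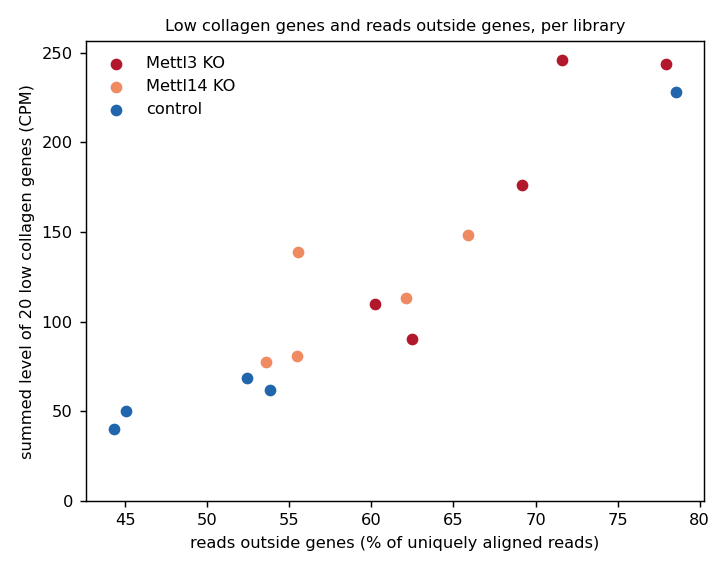
Summed level of the 20 low collagen genes (y axis, CPM) against the share of uniquely aligned reads outside genes (x axis, %) in the 15 libraries; each point is a library, colored by group. Control replicate 1, at 78.6% and 228 CPM, lies with the Mettl3 knockout libraries, and the other 4 controls lie at the lower left.

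Set against each other, Mettl3 knockout tumors had lower mean levels of the type I chains than Mettl14 knockout tumors, with no collagen past the threshold. At an unadjusted p under 0.05, 2 collagens were higher in Mettl3 knockout than in Mettl14 knockout tumors, Col4a4 and Col19a1, against 4.79% of all genes. At that level 4 were lower, Col5a3, Col1a1, Col6a3 and Col15a1, against 8.04% of all genes. The log2 fold change in Mettl3 knockout over Mettl14 knockout tumors was -1.41 (edgeR adjusted p = 0.349, SE 0.49) for Col1a1, -1.05 (edgeR adjusted p = 0.349, SE 0.50) for Col12a1 and -0.71 (edgeR adjusted p = 0.39, SE 0.51) for Col3a1. Col4a1 and Col4a2 had values of -0.24 ± 0.29 and -0.39 ± 0.27 (SE). The largest values above 0 were 1.51 ± 0.68 for Col19a1 and 1.45 ± 0.72 for Col25a1, both low collagens. Of the 44 genes 24 lay above 0 and 20 below.

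Collagen chains are assembled in fixed partnerships, and 10 pairs of chains were compared over the 15 libraries by the correlation of log2 CPM, with two-sided permutation p-values from 100000 resamples adjusted over the 10 pairs. Col4a1 and Col4a2, which join in the common type IV trimer, had r = 0.981 and rho = 0.982, each with adjusted p = 5e-05, resting on the smallest p that the resamples can give. With the 2 libraries that lay farthest from the median of Col4a1 left out, r was 0.977, and on deviations from the group means it was 0.986. Among 24566 genes Col4a2 ranked 1 in likeness to Col4a1. The levels per kilobase of Col4a2 over Col4a1 were 0.645, 0.611, 0.633, 0.622 and 0.648 in Mettl3 knockout, 0.677, 0.768, 0.727, 0.657 and 0.681 in Mettl14 knockout and 0.721, 0.651, 0.627, 0.619 and 0.565 in control libraries, a narrow range in each group. The genes lie head to head on mouse chromosome 8 (mm10), Col4a1 at chr8:11198423-11312826 on the minus strand and Col4a2 at chr8:11312805-11449287 on the plus strand. Their annotated start positions lie 21 bases apart, and whether the reads were counted by strand is not given in the sources used here. Col4a3 and Col4a4, on chromosome 1, have starts 72 bases apart, and Col4a5 and Col4a6, on chromosome X, 1309 bases apart.

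The type I chains were linked less tightly. Col1a1 and Col1a2 had r = 0.868 and rho = 0.886 (adjusted p = 7.5e-05 and 0.000167), and r was 0.731 without Mettl14 knockout replicates 1 and 4. Per kilobase Col1a1 over Col1a2 was 0.663, 0.354, 0.661, 0.705 and 0.467 in Mettl3 knockout, 1.33, 1.20, 0.445, 0.810 and 0.50 in Mettl14 knockout and 0.443, 0.375, 0.308, 0.479 and 0.534 in control libraries, although the protein takes 2 chains of the first to 1 of the second. The ratio was highest in Mettl14 knockout replicates 1 and 2. Its size depends on the lengths used, 6563 bases for Col1a1 and 12426 bases for Col1a2 over all annotated exons. Their transcripts with the longest coding sequence have 5930 and 5348 bases and would give lower ratios. The values therefore cannot be set against the 2 to 1 of the protein. Col3a1 and Col1a1 had r = 0.832 and rho = 0.821 (adjusted p = 0.00054 and 0.00066), with r = 0.881 without the 2 farthest libraries. Col5a1 and Col5a2 had r = 0.741 and rho = 0.686 (adjusted p = 0.00302 and 0.0106), with r = 0.553 without the 2 farthest. Col6a1 had r = 0.74 and rho = 0.614 with Col6a3 (adjusted p = 0.00309 and 0.0215) and r = 0.668 and rho = 0.621 with Col6a2 (adjusted p = 0.00946 and 0.0214). Without replicate 4 of each knockout r fell to 0.383 for Col6a1 with Col6a3 and 0.336 for Col6a1 with Col6a2. Within the control libraries alone r was 0.812 and 0.885, and on deviations from the group means it was 0.782 and 0.688. Col9a2 and Col9a3 had r = 0.918 and rho = 0.936 (adjusted p = 5e-05 and 5e-05), and Col4a5 and Col4a6 had r = -0.867 and rho = -0.857 (adjusted p = 7.5e-05 and 0.0003). In these last pairs Col9a2 and Col4a6 are low collagens, whose level moved with the share of reads outside genes, and its part was not tested. Col8a1 with Col8a2 (r = -0.335 and rho = -0.407; adjusted p = 0.225 and 0.132) and Col11a1 with Col11a2 (r = 0.467 and rho = 0.414; adjusted p = 0.0897 and 0.132) did not pass.

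**Figure D5:**
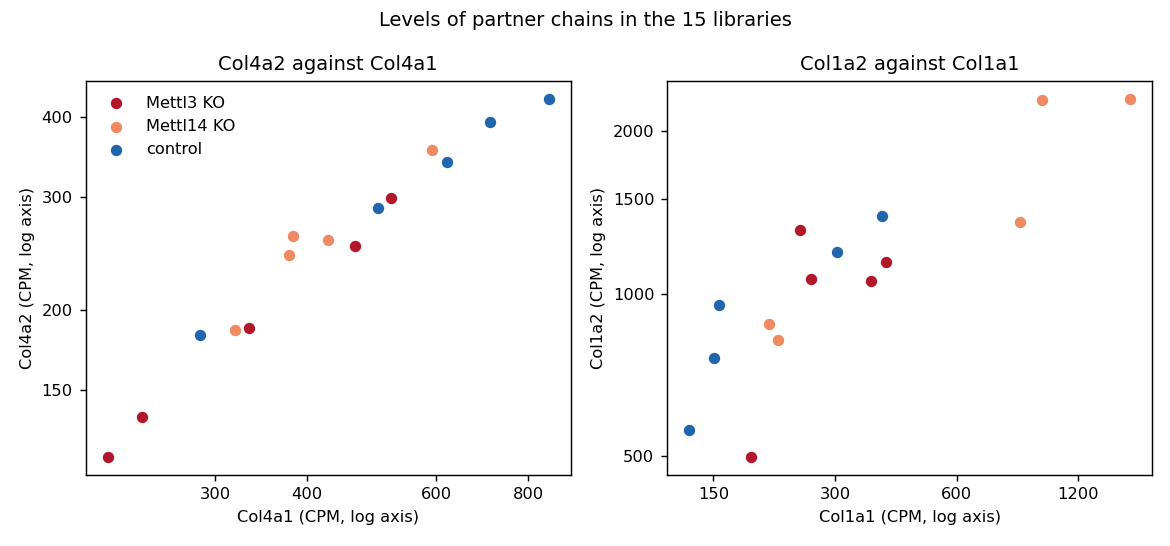
Levels of Col4a2 against Col4a1 and of Col1a2 against Col1a1 (CPM, log axes) in the 15 libraries, colored by group. The type IV chains fall on a line across all groups (r = 0.981), whereas the type I chains scatter more widely (r = 0.868).

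As a description over the 15 libraries, the genes most like Col1a1 in log2 CPM were Col5a1 (r = 0.945), Itpkb, Daxx, Loxl1 and Dok3 (r = 0.920 for the last). Those most like Col4a1 were Col4a2, Samd1, Cnnm3, Hmg20b and the pseudogene Rps2-ps10 (r = 0.946), and those most like Col6a1 were Vti1b, Rab33b, Tox4, Tspan3 and Nhlrc3, at r = 0.937 to 0.911. Among collagens outside the chosen pairs, Col3a1 and Col5a2 had r = 0.977, a value picked after it was seen. They are neighbors on chromosome 1, at chr1:45311538-45349706 on the plus strand and chr1:45374321-45503282 on the minus strand. The median r between pairs was 0.28 within the 24 collagens above the receptor level (276 pairs), 0.80 within the 20 low collagens (190 pairs) and -0.043 between them (480 pairs). The points share library depth and the share of reads outside genes.

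The enzymes and receptors that make and read collagen were examined as 5 lists. Of 59 genes, all tested, edgeR called 1 in the Mettl3 knockout comparison, where 1.24% of all genes passed, and 0 in the others. A count of 1 in 59 is near that background. Itga10, the integrin subunit alpha 10 that binds collagen, was at 7.29, 7.34, 8.20, 7.75 and 6.44 CPM in Mettl3 knockout tumors, 14.3, 5.62, 6.32, 5.32 and 7.76 CPM in Mettl14 knockout tumors and 11.6, 13.5, 13.9, 15 and 20.0 CPM in controls. Every Mettl3 knockout value lay below every control value, as it did for 1.68% of all genes. The log2 fold change in Mettl3 knockout over control tumors was -1.07 (edgeR adjusted p = 0.0366, SE 0.19). The call did not hold under library totals, without the filter, with a filter at a mean of 1 CPM, in a fit of all 15 libraries, with the outside-gene share as a covariate, or in 9 of 10 fits without 1 library. Its adjusted p over the 20 alternatives ran from 0.000365 to 0.154 and its log2 fold change from -1.27 to -0.81. In Mettl14 knockout over control tumors its log2 fold change was -0.94 (edgeR adjusted p = 0.244, SE 0.27). Itgb1, the beta subunit shared by the collagen-binding integrins, averaged 599.8 ± 156 CPM in Mettl3 knockout and 981 ± 269 CPM in control tumors, with a log2 fold change of -0.77 (edgeR adjusted p = 0.0561, SE 0.21), and was chosen in this comparison after its values were seen. Its adjusted p was under 0.05 in 4 of 20 alternatives. All genes above 100 CPM, the level of Itgb1, had a median log2 fold change of -0.57 in this comparison. The 10 receptors had a median log2 fold change of -0.09 in Mettl3 knockout and -0.04 in Mettl14 knockout over control.

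Of 19 genes for collagen folding and modification 0 passed with edgeR in any comparison, with a median log2 fold change of -0.45 in Mettl3 knockout over control (all genes, -0.14) and 0.01 in Mettl14 knockout over control (all genes, -0.09). In Mettl3 knockout over control the median of all genes was -0.43 at 20 to 50 CPM, -0.49 at 50 to 100 CPM and -0.57 above 100 CPM. A value of -0.45 was thus common among genes at these levels. P4ha2, a prolyl hydroxylase subunit that stabilizes the triple helix, averaged 37.2 ± 10.1 CPM in Mettl14 knockout and 17.9 ± 3.24 CPM in control tumors, with a log2 fold change of 1.01 (edgeR adjusted p = 0.144, SE 0.22). All 5 Mettl14 knockout values lay above the control mean, and over the alternatives in processing the adjusted p ran from 0.00156, with DESeq2, to 0.389, under 0.05 in 2 of 20 alternatives. Mia3, which loads procollagen into transport carriers, and Plod2, a lysyl hydroxylase, had log2 fold changes of -0.48 (edgeR adjusted p = 0.0719, SE 0.16) and -0.54 (edgeR adjusted p = 0.0816, SE 0.19) in Mettl3 knockout over control. Mia3 passed in 3 of 20 alternatives and Plod2 in 1 of 20 alternatives. Of 13 genes for propeptide cleavage and crosslinking 0 passed with edgeR, with medians of 0.23 in Mettl3 knockout and 0.08 in Mettl14 knockout over control. Lox, the lysyl oxidase that crosslinks fibrils, averaged 77.5 ± 41.5 CPM in Mettl14 knockout and 30.8 ± 6.35 CPM in control tumors, with a log2 fold change of 1.29 (edgeR adjusted p = 0.21, SE 0.32), and Loxl2 of the same family had 0.93 (edgeR adjusted p = 0.255, SE 0.28). All 5 Mettl14 knockout tumors lay above the control mean for both. DESeq2 called both, with an adjusted p of 0.00773 for Lox and 0.047 for Loxl2, and Loxl2 also passed without control replicate 1, at 0.0459. Over all alternatives the highest adjusted p was 0.479 for Lox and 0.583 for Loxl2. In Mettl3 knockout over Mettl14 knockout tumors Loxl2 had a log2 fold change of -0.98 (edgeR adjusted p = 0.349, SE 0.30) and P4ha1, another prolyl hydroxylase subunit, -0.60 (edgeR adjusted p = 0.349, SE 0.17).

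Of 8 fibril-organizing matrix genes 0 passed, with a median log2 fold change of 0.52 in Mettl14 knockout and -0.01 in Mettl3 knockout over control. Bgn, the small proteoglycan biglycan, averaged 209.8 ± 108 CPM in Mettl14 knockout and 114 ± 20.3 CPM in control tumors, with a log2 fold change of 0.83 (edgeR adjusted p = 0.31, SE 0.29). Of 9 basement membrane partners 0 passed with edgeR, with medians of -0.50 in Mettl3 knockout and -0.06 in Mettl14 knockout over control. All genes above 100 CPM, the level of Lamb1 and Lamc1, had a median of -0.57 in Mettl3 knockout over control. The laminin chains Lamb1 and Lamc1, which polymerize beside type IV collagen, averaged 311 ± 129.5 and 292 ± 99.7 CPM in Mettl3 knockout and 533 ± 136 and 474 ± 118 CPM in control tumors. Their log2 fold changes were -0.86 (edgeR adjusted p = 0.0747, SE 0.29) and -0.76 (edgeR adjusted p = 0.0744, SE 0.25), and all 5 Mettl3 knockout values lay below the control mean for each. Both passed in 4 of 20 alternatives, DESeq2, voom and edgeR without control replicate 1 among them. The adjusted p ran from 0.00975 to 0.398 for Lamb1 and from 0.0109 to 0.46 for Lamc1. In Mettl14 knockout over control tumors Lamb1 had -0.51 (edgeR adjusted p = 0.349, SE 0.20), and passed in 1 of 20 alternatives. Between Mettl3 knockout and Mettl14 knockout tumors the medians were -0.40 for folding, -0.29 for crosslinking, -0.54 for fibril-organizing, -0.48 for basement membrane partner and -0.12 for receptor genes (all genes, -0.01). In that comparison the median of all genes was -0.35 at 50 to 100 CPM and -0.38 above 100 CPM.

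The authors' deposited table for Mettl3 knockout over control, which gives DESeq2 results, listed 2 collagens with an adjusted p under 0.05, among 11.6% of the genes that had one. They were Col28a1, higher with a log2 fold change of 1.56 and adjusted p of 0.0269 in the authors' deposited table, and Col18a1, lower at -0.81 and 0.0322. The authors' deposited table for Mettl14 knockout over control listed 1, Col1a1, at 1.76 with an adjusted p of 0.0269, among 2.98% of genes. An adjusted p was given in the authors' deposited table for 36 collagens in Mettl3 knockout tumors and for 35 in Mettl14 knockout tumors. DESeq2 on the counts here gave an adjusted p of 0.0639 for Col1a1.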

How the data were processed

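RNA-seq counts of 15 tumor libraries were analysed, 5 each from Mettl3 knockout, Mettl14 knockout and control tumors. Per the labels' protocols, polyadenylated RNA was sequenced as single reads of 75 nucleotides. The authors deposited 1 table of unnormalized read counts by gene for each knockout, and the 5 control columns, identical in both tables, were used once. The submitters' processing notes name cutadapt 1.18, HISAT2 2.1.0, HTSeq 0.11.2, DESeq2 and the mm10 build. The sources used here give neither the annotation release nor the strand setting, so reads of overlapping or antisense genes cannot be told apart. The authors also deposited log2 fold changes with their standard errors, and p-values with adjusted p-values, in columns named as DESeq2 names them, per the file headers. The lines for reads in no gene stayed out of library sizes.

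Symbols, positions and exon lengths came from GENCODE M21 (mm10), which named 54723 of 54752 genes. Replicates of a group differed beyond sampling noise in all 30 pairs (smallest chi-square per gene 9.14). Each knockout was compared with control by edgeR 4.0.16 (R 4.3.3) in a fit of 10 libraries, and the knockouts with each other in a fit of 15, with filterByExpr at a minimum count of 10, TMM scaling, robust quasi-likelihood and Benjamini-Hochberg adjustment over all genes at 0.05. Alternatives were RLE scaling, library totals, abundance-dependent offsets, no filter, a mean of at least 1 CPM, DESeq2 1.42.0, limma 3.58.1 voom, a joint fit, a replicate block, the outside-gene share as a covariate, and each library left out. An unadjusted threshold was added after seeing the data. Correlations used log2 CPM with a prior count of 2. The scripts were tested on simulated data.

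The members, partner lists and marker lists were chosen with earlier results of these data known. Fold changes are given for the 12 most abundant collagens, the 3 largest changes per comparison and, per partner list, the genes past the threshold or among the 2 smallest p. Col18a1 and Col5a3 were added after their values were seen. Sequences were read from GENCODE M21 transcripts.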

Additional observations from a re-analysis of the deposited data

Results flagged for a closer look

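A library stood far from the other 4 of its group, by Dixon's criterion at the 95% level, in 6 of 69 groups of collagen values checked, where chance gives about 1 in 20. The check did not cover all 44 collagens, and low collagens move together, so 1 in 20 is only a rough guide. Col12a1, the fibril-associated collagen, was at 937 CPM in Mettl14 knockout replicate 4, while the other 4 tumors of that group lay between 146 and 363 CPM. In the same library the type VI chain Col6a5 was at 15.3 CPM. The other flags were all in control replicate 1, the control with the largest share of reads outside genes, and all concerned low collagens. There Col19a1 was at 9.01 CPM, Col25a1 at 21.9 CPM, Col6a5 at 9.34 CPM and Col6a6 at 9.5 CPM, each the highest of the 5 controls. Low collagens outside the check were high in that library too, such as Col4a6 at 8.69 CPM against at most 1.06 CPM in the other controls. The part of the outside-gene share in these values was not tested.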

How the results depend on the processing

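The ratios of class sums moved by less than the spread between tumors under every scaling and with each library left out. However, the Mettl3 knockout fibrillar ratio of 1.17 ran from 0.973, without Mettl3 knockout replicate 1, to 1.31. That of the other class, 0.997, ran from 0.894 to 1.06, and that of all collagens, 0.989, from 0.879 to 1.09. The direction of these Mettl3 knockout ratios turned. In Mettl3 knockout tumors 266 genes passed, against 100 with RLE scaling, 122 with library totals, 62 without the filter, 81 with a mean of at least 1 CPM, 2700 with DESeq2, 5031 with voom, 42 in a fit of 15 libraries and 55 with the outside-gene share as a covariate. Leaving out 1 library gave 35 to 11625, the highest without control replicate 1 and at most 65 without any other library. The count of collagens, 0, became 4 with DESeq2, 16 with voom, 9 at an unadjusted p and 0 to 29 with 1 library left out, again the highest without control replicate 1. In Mettl14 knockout tumors the 0 genes became 47 without the filter, 505 with DESeq2, 50 in a fit of 15 libraries and 0 to 1054 with 1 library left out, and the 0 collagens became 7 at an unadjusted p and 0 to 7. Between Mettl3 knockout and Mettl14 knockout tumors they became 68 with DESeq2 and 0 to 1, and the 0 collagens 6 at an unadjusted p. The correlation of Col11a1 with Col11a2 was 0.528 with library totals and then passed.

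Same-numbered libraries had correlations of -0.75 to 0.62 on deviations from the group means. For Mettl3 knockout and control they were 0.62, 0.058, -0.24, -0.23 and 0.57 for replicates 1 to 5. These values cannot decide whether the replicate numbers pair the samples, and the main fits used no pairing. With the number as a block, 6002 genes (1891 higher, 4111 lower) and 18 collagens (15 higher, 3 lower) passed in Mettl3 knockout tumors, 14 genes and 0 collagens in Mettl14 knockout tumors, and 0 genes between the knockouts. With the block the log2 fold change in Mettl3 knockout tumors became 0.011 for Col1a2, -0.014 for Col3a1 and -0.036 for Col5a2, and in Mettl14 knockout tumors 0.12 for Col19a1 and 0.77 for Col25a1.

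Signs of small log2 fold changes turned under other settings. In Mettl3 knockout tumors Col1a2 became 0.089 with RLE scaling, 0.13 with library totals, 0.10 with a mean of at least 1 CPM, 0.089 with DESeq2, 0.026 with voom, 0.063 in a fit of 15 libraries and 0.44 with the covariate. With abundance-dependent offsets Col1a2 became 0.73, Col5a3 0.32, Col6a3 0.46, Col8a1 0.24 and Mia3 0.033. With the covariate Col6a3 became 0.034 and Col8a1 0.080, and without the filter Col5a1 became -0.17 and Col5a2 -0.079. In Mettl14 knockout tumors Col16a1 became 0.042 with library totals, 0.0044 with abundance-dependent offsets and 0.011 with the covariate, and Col6a1 0.13, 0.078 and 0.063, and 0.0085 in a fit of 15 libraries. Col19a1 became 0.36 and Col25a1 0.93 with voom, and Col25a1 0.032 with the covariate. Between Mettl3 knockout and Mettl14 knockout tumors Col4a1 became 0.14 and Col8a1 0.0033 with abundance-dependent offsets, and with the covariate Col4a1 became 0.13, Col13a1 -0.0100, Col6a5 -0.24 and Col6a6 -0.47. With 1 library left out, values in Mettl3 knockout tumors ran from -0.16 to 0.60 for Col12a1, -0.16 to 0.32 for Col1a2, -0.12 to 0.69 for Col3a1, -0.078 to 0.35 for Col5a1, -0.14 to 0.51 for Col5a2, -0.13 to 0.17 for Col5a3 and -0.36 to 0.17 for Col6a3. In Mettl14 knockout tumors they ran from -0.27 to 0.029 for Col16a1, -1.0 to 0.63 for Col19a1, -0.76 to 1.15 for Col25a1, -0.32 to 0.076 for Col6a1 and -0.045 to 0.19 for Col8a1. The causes of these changes were not tested.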
